A study of Homo sapiens with 11 samples.

Results

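Human transcripts were measured in A375 melanoma xenografts whose hosts had received PLX4720 and bevacizumab together (COMBO) or vehicle. A375 is a human melanoma cell line that carries the V600E mutation of BRAF, and the tumours were grown under the skin of female CD1 athymic mice, which were 6 weeks old, until they measured 150 to 200 mm3. COMBO mice were given PLX4720, an oral inhibitor of mutant BRAF, at 60 mg/kg every day, together with intraperitoneal bevacizumab, a humanised antibody that binds human VEGF-A, at 10 mg/kg 3 times a week. Vehicle mice received methylcellulose. Treatment lasted 12 days in both groups. The arrays were grouped by treatment label, and the comparison was chosen with earlier results of these data known. It uses 5 of the 11 arrays of the series, 2 for COMBO and 3 for vehicle. The other 6 arrays, 3 for PLX4720 alone and 3 for bevacizumab alone, entered the model to estimate the spread and are named only where COMBO was tested against them. The model has limits. All tumours derive from 1 cell line, athymic mice lack mature T cells, and the stroma and vessels are mouse tissue that human probes are not designed to read.

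BRAF carrying the V600E mutation signals without growth factors through MEK to ERK, and ERK activity is read out by feedback genes such as the Sprouty genes and the dual-specificity phosphatases. VEGF-A is secreted by tumour cells under low oxygen and drives the growth of leaky vessels. Genes induced by low oxygen are switched on by the HIF transcription factors, while interferon-stimulated genes are switched on after interferon binds its receptor, through a DNA element called the ISRE. Both programmes are readable in the tumour cells themselves.

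Between 21145 and 21521 probes were above background (detection p below 0.05) on the COMBO arrays and between 21454 and 21952 on the vehicle arrays, of 47323. The COMBO arrays correlated at 0.987 across the 14886 genes tested and the vehicle arrays at 0.988 to 0.989, while COMBO and vehicle arrays correlated at 0.973 to 0.98. The median within-arm SD of a gene was 0.16 log2 units for COMBO and 0.19 for vehicle. It was 0.45 for PLX4720 alone and 0.34 for bevacizumab alone, and these arms share the estimate of spread. Several markers of melanoma cells were above background in both groups. SOX10, the neural crest transcription factor of the melanocyte lineage, stood at 11.24 and 11.44 on the COMBO arrays against 11.17, 11.66 and 10.86 on the vehicle arrays (log2 intensity, as for all levels below). PRAME and CSPG4, antigens of melanoma cells, differed by -0.02 and 0.00, and PMEL, a pigment protein, was below background on all 5 arrays. Of 16 listed melanoma markers 13 were measured, and MLANA, TYR and S100B were not among them. Of the 13, 0 passed the test (limma, 1 at an unadjusted p below 0.05), with a median difference of 0.01.

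Limma called 21 of 14886 genes at an adjusted p below 0.05, 18 higher under COMBO (0.121% of genes tested) and 3 lower (0.0202%). In none of the 21 did the COMBO arrays overlap the vehicle arrays, although 5302 genes (35.6%) did not overlap either. At the limits the methods of the study set, a log2 difference of 1 or more in either direction at p below 0.01 without adjustment, there were 157 genes higher (1.05%) and 75 lower (0.504%). These limits carry no correction for the number of genes. An unadjusted p below 0.01 was found for 267 genes where 149 would be expected by chance, and below 0.05 for 778 where 744 would. The count of 21 rested on few arrays. It was 1 without COMBO 1 (SCRG1), 2 without COMBO 2 (SCRG1 and ANGPTL7), and 26, 4 and 5 without vehicle 1, 2 and 3. It was 36, 41 and 72 without PLX4720 1, 2 and 3, and 6, 7 and 7 without bevacizumab 1, 2 and 3. A fit of only the 5 arrays compared called 172, all 21 among them. In every one of the 24 alternative settings the 21 genes kept their direction. Because their COMBO and vehicle arrays did not overlap, leaving out 1 array could hardly reverse it, so the kept direction adds little support.

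**Figure D1:**
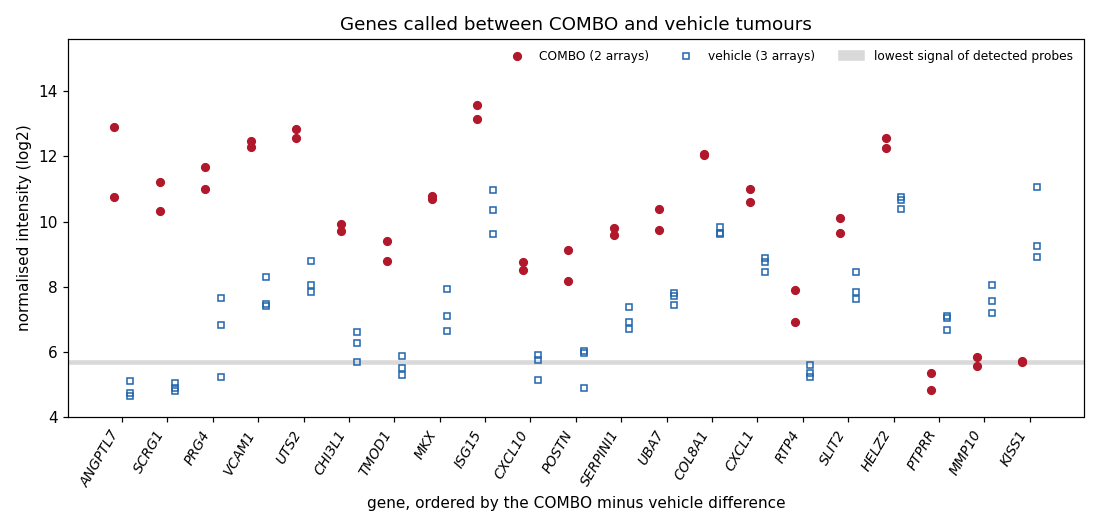
Normalised log2 intensity (y axis) of the 21 called genes (x axis), with COMBO arrays as filled circles on the left of each gene and vehicle arrays as open squares on the right; the grey band spans the lowest signal of detected probes on each array. The 2 COMBO arrays lie above all 3 vehicle arrays for 18 genes and below them for PTPRR, MMP10 and KISS1.

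ANGPTL7, SCRG1 and PRG4 had the 3 largest differences among the 18 genes called higher, and they are described with 2 further called genes of cartilage and tendon. ANGPTL7, an angiopoietin-like secreted factor, stood at 12.90 and 10.76 under COMBO and at 5.10, 4.73 and 4.66 under vehicle, where its probe was below background on every array. It was at least 71.8-fold higher (adjusted p = 0.00386). Its 2 COMBO values lay 2 log2 units apart, the widest gap among the called genes. SCRG1, a small secreted protein first described in scrapie-infected brain and made by cartilage cells, was also below background under vehicle (5.06, 4.90 and 4.81) and reached 10.32 and 11.21 under COMBO, at least 34.3-fold higher (adjusted p = 0.00109, the smallest of all genes). It was the only gene that passed in all 24 alternatives. PRG4, which encodes the joint lubricant lubricin, stood at 11.68 and 11.01 under COMBO against 7.67, 6.83 and 5.22 under vehicle (log2 difference 4.77 ± 0.72 SE, adjusted p = 0.0341). A second PRG4 probe gave 4.06. Vehicle tumours varied for this gene, and its probe was detected on 2 of the 3. CHI3L1, a chitinase-like glycoprotein of inflamed cartilage, stood at 9.92 and 9.70 against 6.60, 5.69 and 6.28 (3.62 ± 0.52, adjusted p = 0.029). A second and dimmer CHI3L1 probe differed by only 0.47. MKX, the homeobox factor of tendon cells, stood at 10.77 and 10.70 under COMBO against 7.94, 7.10 and 6.65 under vehicle (3.51 ± 0.53, adjusted p = 0.0341). ANGPTL7, SCRG1, CHI3L1 and MKX are the 4 called members among 16 measured cartilage and tendon genes, beside 0.121% of all genes called higher. The list was chosen with earlier results of these data known, so its share of calls is not independent support. The count was 1 without COMBO 1 and 2 without COMBO 2, vehicle 2, vehicle 3 or any 1 bevacizumab array. The other 12 were not called, and the median of the list was 0.32 beside -0.02 for all genes.

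Adhesion and matrix genes formed a further group. VCAM1, an adhesion receptor for leukocyte integrins, stood at 12.29 and 12.48 under COMBO against 8.31, 7.48 and 7.41 under vehicle (4.65 ± 0.47, adjusted p = 0.00386), and its other probes differed by 3.25 and 3.79. POSTN, the matricellular protein periostin, stood at 8.17 and 9.12 against 5.98, 4.91 and 6.03 (3.00 ± 0.42, adjusted p = 0.029). COL8A1, a chain of the network-forming type VIII collagen, gave a close pair, 12.08 and 12.04 under COMBO against 9.62, 9.64 and 9.84 under vehicle (2.36 ± 0.38, adjusted p = 0.0482). All 3 COL8A1 probes pointed the same way, the other two at 2.08 and 1.43. SLIT2, a secreted guidance ligand of ROBO receptors, stood at 10.11 and 9.64 against 8.45, 7.83 and 7.63 (1.91 ± 0.31, adjusted p = 0.0482).

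Another group belongs to interferon and chemokine signalling. ISG15, a ubiquitin-like protein that is attached to other proteins after interferon, stood at 13.57 and 13.15 under COMBO and at 10.97, 10.34 and 9.63 under vehicle (8.24-fold higher, log2 3.04 ± 0.43, adjusted p = 0.029). UBA7 is the enzyme that activates ISG15 for this attachment. Its values were 10.39 and 9.75 against 7.82, 7.72 and 7.45 (2.41 ± 0.30, adjusted p = 0.0177), so the modifier and its activating enzyme both rose. HELZ2, an interferon-induced helicase and nuclear receptor coactivator, stood at 12.57 and 12.24 against 10.74, 10.65 and 10.38 (1.81 ± 0.24, adjusted p = 0.0241). RTP4, a receptor transporter that interferon induces, reached 7.89 and 6.91 under COMBO and was below background under vehicle at 5.60, 5.35 and 5.24, at least 3.32-fold higher (adjusted p = 0.0482). CXCL10, the interferon-induced attractant of activated T cells, stood at 8.51 and 8.76 under COMBO against 5.90, 5.74 and 5.15 under vehicle (3.04 ± 0.44, adjusted p = 0.029). CXCL1, an attractant of neutrophils, stood at 10.60 and 11.01 against 8.87, 8.75 and 8.45 (2.12 ± 0.30, adjusted p = 0.029).

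The remaining 3 rises were of diverse function. UTS2, which encodes the vessel-constricting peptide urotensin II, stood at 12.85 and 12.55 under COMBO against 8.80, 7.85 and 8.05 under vehicle (4.46 ± 0.64, adjusted p = 0.029). One of its other probes differed by 4.36 and another, dim one by -0.12. TMOD1, which caps the pointed ends of actin filaments, stood at 9.41 and 8.80 against 5.31, 5.51 and 5.89 (3.54 ± 0.51, adjusted p = 0.029) and was detected on 1 of 3 vehicle arrays. SERPINI1, the protease inhibitor neuroserpin, stood at 9.60 and 9.80 against 7.39, 6.72 and 6.91 (2.70 ± 0.44, adjusted p = 0.0482).

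KISS1, PTPRR and MMP10 fell. KISS1, the precursor of kisspeptin and known as a suppressor of melanoma metastasis, dropped to 5.73 and 5.70 under COMBO, against 9.25, 8.90 and 11.07 under vehicle (16.3-fold lower, log2 -4.02 ± 0.49, adjusted p = 0.0177). Its COMBO values lay just above the lowest signal of detected probes, and vehicle 3 stood almost 2 log2 units above the other vehicle arrays. PTPRR, a tyrosine phosphatase that acts on ERK, was below background on both COMBO arrays (5.36 and 4.83) and at 7.05, 6.69 and 7.10 under vehicle, at least 2.38-fold lower (adjusted p = 0.029), while a second, dim probe differed by -0.30. MMP10, the matrix protease stromelysin-2, stood at 5.86 and 5.58 under COMBO against 7.19, 7.57 and 8.06 under vehicle (log2 -1.89 ± 0.30, adjusted p = 0.0482), and its probe was detected on 1 of 2 COMBO arrays. KISS1 passed in 19 of the 24 alternatives, MMP10 in 11 and PTPRR in 10.

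To show what the interferon-type genes share outside the measurement, their promoters were searched for the core of the ISRE, GAAA followed by any 2 bases and GAAA, on either strand in the 250 bases before the annotated start (RefSeq, GRCh38.p14). The letters were found in 301 of 11654 promoters of tested genes (2.58%). They occurred in 5 of 19 called genes with a promoter entry, CXCL10, ISG15, POSTN, RTP4 and VCAM1, and in 24 of 38 interferon-stimulated genes with an entry (63.2%). A match is a run of letters and not a measured binding site. The 150 bases before the start are given for 3 called genes with a match in that stretch, for HELZ2, a called gene without one, and for IFI27 and IFIT1, which have the largest differences among the listed interferon genes; each is given 5′ to 3′ on the strand of its gene, with the matching letters in capitals.
ISG15: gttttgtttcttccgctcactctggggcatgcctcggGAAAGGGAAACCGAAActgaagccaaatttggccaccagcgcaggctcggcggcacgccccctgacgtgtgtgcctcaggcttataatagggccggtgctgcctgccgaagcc
RTP4: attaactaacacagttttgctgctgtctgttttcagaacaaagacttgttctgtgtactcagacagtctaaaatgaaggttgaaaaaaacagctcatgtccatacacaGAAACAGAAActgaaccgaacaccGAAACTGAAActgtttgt
VCAM1: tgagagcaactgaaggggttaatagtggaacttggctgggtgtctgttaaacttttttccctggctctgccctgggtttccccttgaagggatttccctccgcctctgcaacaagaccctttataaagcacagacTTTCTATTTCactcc
HELZ2: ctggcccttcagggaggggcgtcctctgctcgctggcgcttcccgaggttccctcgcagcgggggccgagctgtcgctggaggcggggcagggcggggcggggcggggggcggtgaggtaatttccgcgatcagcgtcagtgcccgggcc
IFI27: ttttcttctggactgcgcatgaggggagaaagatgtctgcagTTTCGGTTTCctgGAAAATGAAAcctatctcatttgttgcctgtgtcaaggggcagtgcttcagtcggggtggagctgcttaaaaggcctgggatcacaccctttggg
IFIT1: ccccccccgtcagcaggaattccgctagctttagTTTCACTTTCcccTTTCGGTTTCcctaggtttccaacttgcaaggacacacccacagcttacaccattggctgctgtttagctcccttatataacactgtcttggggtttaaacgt
These stretches lie at chr1:1013347-1013496 (plus strand) for ISG15, chr3:187368235-187368384 (plus) for RTP4, chr1:100719592-100719741 (plus) for VCAM1, chr20:63574240-63574389 (minus) for HELZ2, chr14:94110586-94110735 (plus) for IFI27 and chr10:89392473-89392622 (plus) for IFIT1. ISG15 holds a pair of overlapping matches that begin 113 and 107 bases before the start. RTP4 holds separate matches at 42 and 18 bases and VCAM1 a single one at 15 bases, on the opposite strand. The matches of CXCL10 and POSTN begin 221 and 174 bases before the start, outside the stretches shown.

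Interferon-stimulated genes had the highest median of the 30 lists, which were chosen with earlier results of these data known. All 48 measured members had a higher mean under COMBO, with a median log2 difference of 1.71 beside -0.02 for all genes, and in 47 of 48 both COMBO arrays lay above all vehicle arrays, as they did in 2497 genes (16.8%) overall. The list stood 1.79 and 1.49 above the vehicle mean on COMBO 1 and COMBO 2, against 0.19, 0.19 and -0.31 on the vehicle arrays. Vehicle 3 was the lowest vehicle array for 35 of the 48. ISG15 and RTP4 were called, 2 of 48 beside 0.121% of all genes, and 31 of 48 were higher at the limits of the study beside 1.05%. This count of called members was 0 without COMBO 1, COMBO 2, vehicle 2 or any 1 of the bevacizumab arrays, 1 without vehicle 3, 4 without vehicle 1 or PLX4720 1, 5 without PLX4720 2 and 18 without PLX4720 3. It was 22 in a fit of only the 5 arrays compared. At an unadjusted p below 0.05 there were 43.

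The members named next were chosen after their values were seen, and none of them was called. The largest difference was that of IFI27, an interferon-induced mitochondrial protein, at 13.43 and 12.79 under COMBO against 9.76, 8.25 and 5.21 under vehicle (5.37 ± 0.95, adjusted p = 0.0557). BST2, the tetherin that holds budding viruses at the cell surface, stood at 12.06 and 11.76 against 9.11, 9.08 and 7.58 (3.32 ± 0.55, adjusted p = 0.0502), just outside the threshold. IFI6, which acts in the endoplasmic reticulum, differed by 2.69 ± 0.45 (adjusted p = 0.0539) and its second probe by 3.51. RSAD2, the antiviral enzyme viperin, stood at 8.43 and 7.82 against 5.17, 5.68 and 5.44 (2.69 ± 0.47, adjusted p = 0.0557). The RNA-binding IFIT1 differed by 3.37 ± 0.64 and its relative IFIT3 by 2.93 ± 0.80. A second IFIT1 probe differed by 1.02, and other IFIT3 probes by 2.52 and 3.12. OAS1, OAS2 and OAS3, which make the 2-5A activator of RNase L, differed by 2.64, 3.00 and 1.20, and the dynamin-like MX1 by 2.77. A second, dim OAS3 probe differed by 0.30, and further OAS1 and OAS2 probes by 1.78 to 2.70. The RNA sensors DHX58 and IFIH1 differed by 1.66 and 1.59, and the transcription factors IRF7, IRF9 and IRF1 by 1.26, 1.05 and 0.73. The smallest was 0.13 for ISG20, an exonuclease, whose COMBO and vehicle arrays overlapped.

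**Figure D2:**
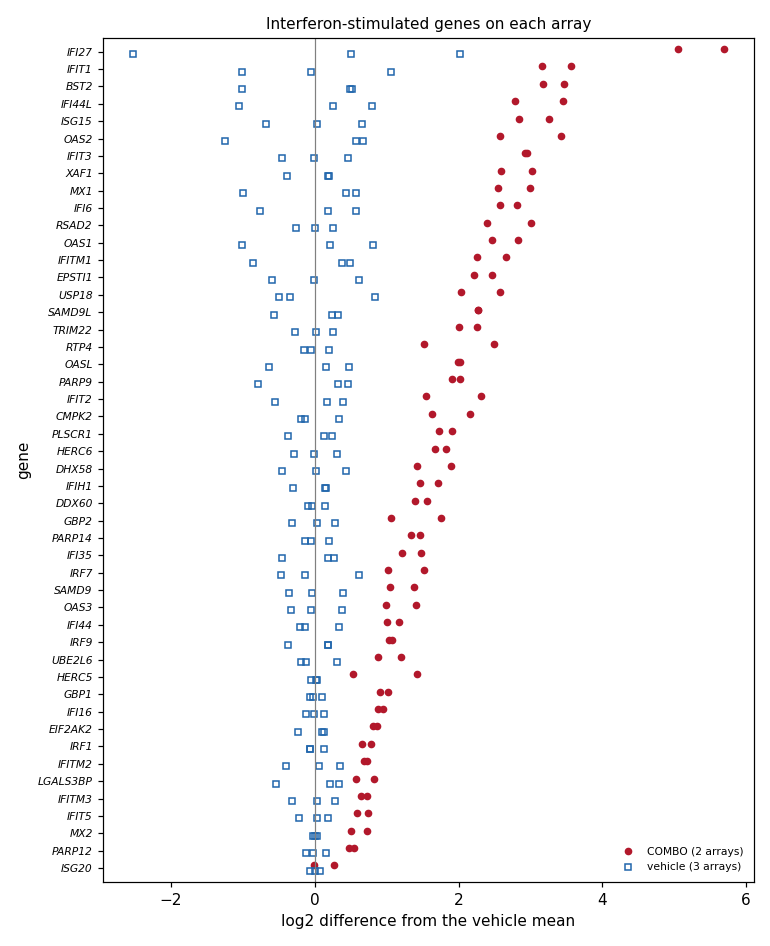
Log2 difference from the vehicle mean (x axis) on each array for the 48 measured interferon-stimulated genes (y axis), COMBO arrays as filled circles and vehicle arrays as open squares. Both COMBO arrays lie to the right of all vehicle arrays in every gene plotted except ISG20, and the vehicle arrays of IFI27 spread over several log2 units.

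Antigen presentation genes showed smaller differences. Of 19 measured HLA class I and peptide loading genes, 18 had a higher mean under COMBO (median 0.50), 0 were called and 6 had an unadjusted p below 0.05. PSMB9, a subunit of the immunoproteasome, stood at 10.17 and 10.04 against 9.23, 9.17 and 9.02 (0.96 ± 0.34, adjusted p = 0.676). TAPBPL, a tapasin-related chaperone, differed by 0.81 ± 0.29 and B2M, the light chain of class I molecules, by 0.60 ± 0.25. Class II genes had a median of 0.68 over 12 members, 0 of them called and 3 higher at the limits of the study, beside 1.05% of all genes. HLA-DRA stood at 11.04 and 10.84 under COMBO against 10.02, 9.89 and 9.21 under vehicle (1.23 ± 0.35, adjusted p = 0.393) and HLA-DMA, which loads peptides, differed by 1.30 ± 0.35 (adjusted p = 0.357). The HLA probes may read related HLA genes. Of 14 complement genes 0 were called (median 0.63), and CFI, the protease that inactivates C3b, stood at 10.82 and 11.13 against 9.27, 9.26 and 9.14 (1.75 ± 0.34, adjusted p = 0.0956).

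Of 32 measured chemokines and cytokines, CXCL10 and CXCL1 were called and 6 were higher at the limits of the study, beside 0.121% and 1.05% of all genes, with a median of 0.55. The count of 2 called was 0 without COMBO 1, COMBO 2, vehicle 2, vehicle 3 or bevacizumab 1, and 1 without bevacizumab 2 or 3. CXCL8, another attractant of neutrophils, missed the threshold at 12.80 and 13.49 under COMBO against 11.37, 11.21 and 11.35 under vehicle (1.84 ± 0.30, adjusted p = 0.0502). The monocyte attractant CCL2 stood at 10.19 and 11.78 against 8.85, 8.63 and 6.12 (3.12 ± 0.74, adjusted p = 0.234), where vehicle 3 lay far below the others. CCL5 differed by 1.27 ± 0.29 and CX3CL1 by 1.26 ± 0.36, and a second, dim CCL5 probe by 0.31. The NF-kB targets had 1 called member of 23, VCAM1, beside 0.121% of all genes called higher. Their median was 0.36, at 0.13 on COMBO 1 and 0.80 on COMBO 2. PTGS2, the inducible cyclooxygenase, differed by 1.55 ± 0.49 (adjusted p = 0.537) and its second probe by 0.55. Over 13 leukocyte markers the median was 0.07, with 0 called and 2 at an unadjusted p below 0.05. Their summed signal was 5289 to 5538 on COMBO arrays and 6248 to 7107 on vehicle arrays, and ITGAX was below background on all 5 arrays. AIF1, a macrophage calcium-binding protein, stood apart at 10.91 and 11.08 against 9.73, 8.61 and 8.61 (2.01 ± 0.35, adjusted p = 0.0557), but a second, dim AIF1 probe differed by 0.10. CD68, the brightest of these markers on all 5 arrays, stood at 11.48 and 11.14 against 12.13, 12.49 and 12.40 (-1.03 ± 0.40, not called). The lower sums under COMBO follow this gene and do not describe the markers as a set. Leukocytes of the host are mouse cells, which human probes are not designed to read.

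Matrix genes held a few high members, and the others lay on both sides of vehicle. Both COMBO arrays lay above all vehicle arrays in 21 of 49 glycoproteins and proteoglycans (42.9%) and 8 of 26 collagens (30.8%), beside 16.8% of all genes. They lay below all vehicle arrays in 4 and 2, beside 18.8%. An unadjusted p below 0.05 (limma) was found for 12 and 7. Of 49 glycoproteins and proteoglycans POSTN and PRG4 were called and 8 were higher at the limits of the study, beside 0.121% and 1.05% of all genes, with a median of 0.34 (0.24 with members below background in 1 group at their bounds). The count of 2 called was 0 without COMBO 1, COMBO 2, vehicle 2, vehicle 3, bevacizumab 1 or bevacizumab 2, 1 without bevacizumab 3, 3 without vehicle 1 or PLX4720 1, and 4 without PLX4720 3. Of 26 collagens COL8A1 was called and 4 were at those limits, beside the same shares of all genes, with a median of -0.03. The call of COL8A1 was lost when any 1 COMBO, vehicle or bevacizumab array was left out, and 2 collagens were called without PLX4720 1 or PLX4720 3. The fibrillar collagen COL3A1 stood at 11.04 and 12.44 under COMBO against 9.20, 7.49 and 7.39 under vehicle (3.72 ± 0.73, adjusted p = 0.0956), COL1A1 at 12.19 and 13.72 against 11.79, 10.34 and 10.79 (1.98 ± 0.53) and COL1A2 at 7.86 and 9.19 against 6.78, 6.82 and 6.50 (1.83 ± 0.51). All 3 chains were higher on COMBO 2 than on COMBO 1. The collagen list as a whole stood at -0.24 on COMBO 1 and 0.33 on COMBO 2. Small leucine-rich and calcium-binding matrix proteins named after their values were seen were LUM (2.50 ± 0.43, adjusted p = 0.0557), DCN (1.77 ± 0.42) and MGP (3.11 ± 0.57, adjusted p = 0.0718). Other DCN probes differed by 1.53, -0.17 and -0.07, and a second MGP probe by 3.39. ABI3BP was below background under vehicle and at least 8.33-fold higher (adjusted p = 0.0557).

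Markers of fibroblasts are given beside these matrix genes. Of 13 markers 1 was called (POSTN) and 6 were higher at the limits of the study, beside 0.121% and 1.05% of all genes. The median of these markers was 0.98, at 0.72 on COMBO 1 and 1.24 on COMBO 2. Their summed signal was 54694 to 66368 on COMBO arrays and 44623 to 62392 on vehicle arrays, ranges that overlap, and 0 of 13 were below background on all 5 arrays. S100A4 was by far the brightest marker, at 15.33 and 15.23 under COMBO against 15.68, 15.57 and 15.20 under vehicle. The sums therefore follow mainly S100A4, and their overlap does not speak for the dimmer markers. POSTN, COL1A1, COL1A2, COL3A1, LUM and DCN are on both lists. Of the 7 markers that are not matrix genes 2 had a higher mean, ACTA2 (0.43) and TAGLN (0.98). The other 5 had a lower mean, at -0.12 for FAP, -0.16 for PDGFRB, -0.20 for S100A4 and -0.43 for PDGFRA, with PDPN below background on both COMBO arrays. The part of these markers in the matrix differences was not tested. Human probes are not designed to read the mouse stroma, and whether they read some mouse RNA was not tested. In bulk RNA the number of cells and the RNA per cell cannot be told apart. Endothelial and pericyte markers had a median of 0.00 over 9 genes, with 0 called (2 at an unadjusted p below 0.05), and markers of muscle, fat, skin and blood a median of -0.03 over 7. Of these 7, 3 were below background on all 5 arrays. HBA2, a haemoglobin gene, stood at 11.63 and 10.14 under COMBO against 12.43, 10.26 and 11.67 under vehicle, and the source of this signal was not tested.

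Proteases and the remaining matrix regulators had medians near that of all genes. Of 32 matrix proteases and crosslinkers MMP10 alone was called, beside 0.0202% of all genes called lower, with a list median of 0.10. MMP13, a collagenase, was below background under vehicle and stood at 6.57 and 8.77 under COMBO, at least 4.01-fold higher (adjusted p = 0.298), with a gap of over 2 log2 units between the COMBO arrays. LOX, which crosslinks collagen, was below background on both COMBO arrays and at 6.37, 6.44 and 7.12 under vehicle (adjusted p = 0.666). Of 21 TGF-beta ligands and targets 0 were called (5 at an unadjusted p below 0.05; median 0.20), and TGFB1 was detected on 1 vehicle array and no COMBO array. TGFB3 stood at 7.32 and 8.57 against 7.24, 6.91 and 6.46 (1.07 ± 0.43, adjusted p = 0.831) and ID3, a target of BMP signalling, differed by 1.20 ± 0.43.

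Genes induced by low oxygen leaned lower under COMBO, without a call. Of 32 measured members 30 had a lower mean, 0 were called, 21 had an unadjusted p below 0.05 and 6 were lower at the limits of the study, beside 0.504% of all genes. The median was -0.79, at -0.65 on COMBO 1 and -0.85 on COMBO 2 against -0.14, 0.03 and 0.15 on the vehicle arrays, and in 26 members both COMBO arrays lay below all vehicle arrays, as in 2805 genes (18.8%) overall. HILPDA, a lipid droplet protein, stood at 10.22 and 9.68 against 11.06, 11.67 and 11.81 (-1.56 ± 0.31, adjusted p = 0.104). VLDLR, a lipoprotein receptor, stood at 7.50 and 7.12 against 8.59, 8.46 and 9.07 (-1.40 ± 0.29, adjusted p = 0.13). ADM, the vasodilator adrenomedullin, stood at 12.67 and 11.96 against 13.51, 13.64 and 13.88 (-1.36 ± 0.35, adjusted p = 0.316). CA12, a carbonic anhydrase, and ANGPTL4, an inhibitor of lipoprotein lipase, were the 2 exceptions at 0.54 and 0.26. The letters ACGTG, the core of the element that HIF factors bind, occurred in 15 of 26 promoters of the list (57.7%) against 22.4% of all promoters searched, on either strand of the same 250 bases. They occurred in 0 of the 4 searched promoters of members at the limits of the study and in 8 of 19 promoters of called genes (42.1%). Of these 8 called genes 6 were higher under COMBO, against the direction of the hypoxia list, and none of the 8 is a member of that list.

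Glycolysis showed the same direction. Of 18 measured members 16 had a lower mean (median -0.58), 0 were called and 4 were lower at the limits of the study, beside 0.504% of all genes. ALDOC, the aldolase of brain, stood at 13.02 and 12.24 under COMBO against 13.64, 14.17 and 13.94 under vehicle (-1.28 ± 0.31, adjusted p = 0.242) and HK2, the inducible hexokinase, at 10.63 and 10.17 against 11.27, 11.43 and 11.71 (-1.07 ± 0.27, adjusted p = 0.312). A second HK2 probe differed by -0.37. The glucose transporter SLC2A1 differed by -1.18 ± 0.38. The largest difference was -1.94 for ENO2, the neuronal enolase. The abundant enzymes LDHA and PGK1 differed by -0.24 ± 0.25 and -0.51 ± 0.25. VEGFA, the ligand that bevacizumab binds, stood at 9.50 and 9.36 under COMBO against 9.63, 9.88 and 9.84 under vehicle (-0.35 ± 0.29, adjusted p = 1), its second probe at -0.67. Of 23 angiogenic factors 0 were called (2 at an unadjusted p below 0.05; median 0.16). SEMA3C, a guidance ligand, differed by 1.32 ± 0.42 and EDN1, the vasoconstrictor endothelin, by -0.96 ± 0.35.

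**Figure D3:**
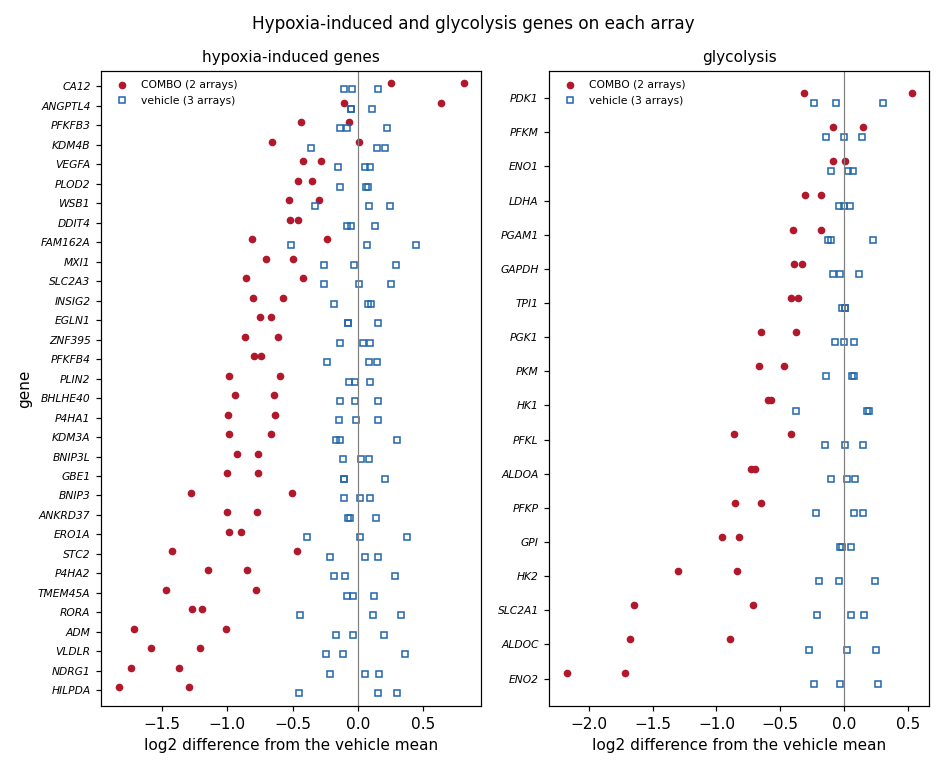
Log2 difference from the vehicle mean (x axis) on each array for the measured hypoxia-induced genes (left, 32) and glycolysis genes (right, 18), COMBO arrays as filled circles and vehicle arrays as open squares. COMBO arrays lie to the left of all vehicle arrays in 26 and 15 genes, beside 18.8% of all genes tested.

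Genes of the transcriptional output of ERK, the pathway that PLX4720 inhibits, differed in both directions. Of 33 measured members 18 had a higher and 15 a lower mean under COMBO, with a median of 0.01. PTPRR alone was called, lower under COMBO (beside 0.0202% of all genes), and 3 had an unadjusted p below 0.05. DUSP6, the phosphatase induced by ERK as its own brake, stood at 12.19 and 12.31 under COMBO against 12.13, 11.82 and 12.14 under vehicle (0.22 ± 0.28, adjusted p = 1). The Sprouty feedback inhibitors lay above vehicle without a call. SPRY1 differed by 1.17 ± 0.37, SPRY2 stood at 12.35 and 11.66 against 11.02, 10.85 and 10.86 (1.10 ± 0.42, adjusted p = 0.752) and SPRY4 at 10.78 and 10.95 against 10.52, 10.28 and 10.17 (0.54 ± 0.33, adjusted p = 1). The ETS factors ETV5 and ETV4 differed by -0.23 ± 0.21 and -0.67 ± 0.56, and CCND1, which encodes cyclin D, by 0.16 ± 0.33.

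Peptide hormone genes differed in both directions. Of 20 measured members UTS2 rose and KISS1 fell, beside 0.121% of all genes called higher and 0.0202% called lower. At the limits of the study 2 were higher and 2 lower, these included, beside 1.05% and 0.504% of all genes. The list median was -0.44. NTS, the precursor of neurotensin, stood at 10.88 and 12.04 under COMBO against 9.04, 5.34 and 5.74 under vehicle (4.75 ± 1.06, adjusted p = 0.182), with vehicle 1 well above the other 2. PAEP, which encodes glycodelin, stood at 8.15 and 8.61 against 10.59, 11.01 and 11.29 (-2.58 ± 0.71, adjusted p = 0.357). Of 24 receptor tyrosine kinases 0 were called (3 at an unadjusted p below 0.05; median -0.14). ROR1, a Wnt5a receptor, stood at 7.90 and 8.73 against 6.42, 6.27 and 6.15 (2.03 ± 0.58, adjusted p = 0.393) and EPHA3, an ephrin receptor, differed by 1.41 ± 0.40. Other ROR1 probes differed by 1.91 and 0.22, and a second EPHA3 probe by 0.72.

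Differentiation state showed no call. The median was -0.14 over 16 melanocyte lineage and pigment genes and -0.01 over 25 genes of the dedifferentiated state, with 1 gene at an unadjusted p below 0.05 in each. MITF, the melanocyte master factor, stood at 7.78 and 6.88 against 6.95, 7.57 and 6.76 (0.24 ± 0.36) and NGFR, a neural crest receptor, at 6.52 and 6.01 against 6.73, 5.99 and 6.39 (-0.10 ± 0.60), and for both genes the groups overlapped. OCA2, a melanosome transporter, was below background under COMBO and at 6.26, 6.37 and 6.89 under vehicle, at least 1.75-fold lower (adjusted p = 0.234). GFRA2, a receptor for neurturin, differed by 1.04 ± 0.29.

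Lists of proliferation and death genes held no call, and with 2 COMBO arrays differences could be missed. The mitosis median stood at 0.08 on COMBO 1 and -0.26 on COMBO 2. No member was called among 38 mitosis genes (median -0.10) or 36 genes of replication and S phase (median 0.01), and 0 had an unadjusted p below 0.05 in either list. MKI67 stood at 6.55 and 6.78 under COMBO against 5.94, 6.60 and 7.31 under vehicle (0.05 ± 0.51), so the vehicle arrays enclosed the COMBO arrays. TPX2, a spindle assembly factor, differed by -0.60 ± 0.32. The cell cycle inhibitor CDKN1A differed by 0.01 ± 0.34, and GDF15, a stress cytokine of the p53 list, by 1.27 ± 0.38 (adjusted p = 0.441). Among 28 genes of the BCL2 family and apoptosis the median was 0.08, 0 were called and 2 had an unadjusted p below 0.05. The BH3-only genes BCL2L11 and PMAIP1 differed by 0.10 ± 0.28 and 0.52 ± 0.31. BIK, of the same class, stood at 7.78 and 6.44 against 9.10, 8.73 and 9.38 (-1.96 ± 0.78, adjusted p = 0.813), and CASP1, the inflammasome caspase, was below background under vehicle and at least 1.8-fold higher (adjusted p = 0.287).

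Cholesterol synthesis genes had a lower mean in 21 of 24 members (median -0.63, 0 called, 5 at an unadjusted p below 0.05), at -0.40 on COMBO 1 and -0.73 on COMBO 2. INSIG1, which retains the sterol sensor in the endoplasmic reticulum, stood at 10.87 and 10.23 against 11.25, 11.94 and 11.79 (-1.11 ± 0.35, adjusted p = 0.533). In the unfolded protein and integrated stress response list the median was -0.27 over 26 genes with 0 called and 7 at an unadjusted p below 0.05. DDIT3, the stress factor CHOP, stood at 9.27 and 8.97 against 10.18, 9.98 and 10.13 (-0.97 ± 0.21, adjusted p = 0.165). Oxidative phosphorylation (median -0.02 over 39), ribosomal proteins (-0.04 over 28), and lysosome and autophagy genes (-0.10 over 26) gave 0 calls and 0 genes at an unadjusted p below 0.05. The list for stress during RNA handling gave a median of 0.02 over 15 genes, with 0 called and 3 at an unadjusted p below 0.05. Its members went both ways. Both COMBO arrays lay above all vehicle arrays in 4 and below them in 6, beside 16.8% and 18.8% of all genes. ZFP36 and FOSB, the members of smallest p, differed by 1.24 ± 0.47 and 1.35 ± 0.52.

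**Figure D4:**
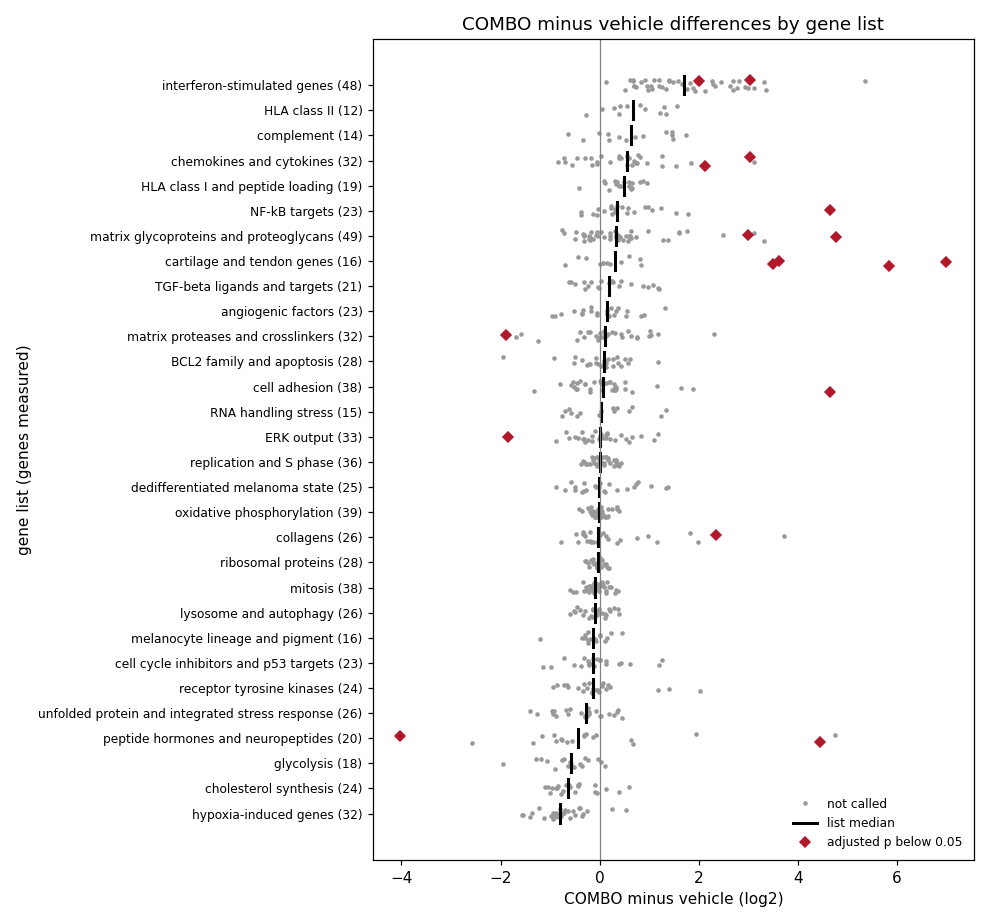
COMBO minus vehicle difference on the log2 scale (x axis) for the measured members of each of the 30 gene lists (y axis, ordered by median), with called genes as diamonds, other members as dots and the list median as a bar. The medians run from -0.79 for hypoxia-induced genes to 1.71 for interferon-stimulated genes, and no more than 4 members are called in any list.

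COMBO was tested directly against each single drug to place these differences. Against PLX4720 alone limma called 1 gene, higher under COMBO (0.00672% of genes tested), and against bevacizumab alone it called 54, 35 higher (0.235%) and 19 lower (0.128%). The first count was 240 without PLX4720 2 and 4 without PLX4720 3. It was 0 without either COMBO array, any 1 vehicle array or any 1 bevacizumab array (limma, 480 to 1276 at an unadjusted p below 0.05). The median of the genes of stress during RNA handling was 1.02 on PLX4720 2, as a difference from vehicle, against -0.49 to 0.07 on the other 10 arrays, and the part of this in the count was not tested. The count against bevacizumab was 11 and 5 without COMBO 1 and 2, 29 without vehicle 2, 87, 87 and 142 without PLX4720 1, 2 and 3, and 22 and 18 without bevacizumab 2 and 3. The comparisons share the COMBO arrays, and those against vehicle share the vehicle arrays, so their values are set side by side and not read as separate evidence. For the 21 called genes the COMBO minus PLX4720 differences lay between -0.95 and 0.71, with 0 of 21 at an unadjusted p below 0.05 and a smallest adjusted p of 0.688. The 95% intervals were 0.53 to 1.58 log2 units wide on each side, so that a difference of this size between the arms could be missed. VCAM1, for example, differed by -0.22 (interval -1.25 to 0.81) and KISS1 by 0.09 (-0.99 to 1.17). The COMBO minus bevacizumab differences of the same 21 genes were between 1.49 and 6.95 in size, each with an adjusted p of 0.0473 or less.

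IPO7, a nuclear import receptor, was the gene called between COMBO and PLX4720. It stood at 9.58 and 9.38 under COMBO and at 7.11, 6.97 and 6.27 under PLX4720 alone (2.70, interval 2.04 to 3.36, adjusted p = 0.0279), while vehicle arrays were at 9.46, 9.68 and 9.92, and the COMBO minus vehicle difference was -0.21 ± 0.30. Under bevacizumab alone IPO7 stood at 8.77, 9.21 and 8.70. It passed in 13 of 24 alternatives, and lost the call without COMBO 1, COMBO 2, any 1 vehicle array or any 1 bevacizumab array (adjusted p = 0.0516 to 0.991), with a range of 0.00765 to 0.998 over all alternatives. VEGFA showed a similar order of levels without a call, 9.50 and 9.36 under COMBO against 8.21, 7.47 and 8.29 under PLX4720 alone (1.44, interval 0.80 to 2.08, adjusted p = 0.499). So did ADM, which stood at 10.15, 9.84 and 11.07 under PLX4720 alone and was 1.96 higher under COMBO (interval 1.19 to 2.73, adjusted p = 0.499). For VEGFA and ADM both COMBO arrays lay below all vehicle arrays, while for IPO7 the COMBO and vehicle arrays overlapped. The hypoxia list had a median of 0.35 for COMBO minus PLX4720 and -0.77 for COMBO minus bevacizumab, and the interferon list -0.10 and 1.72. For collagens these medians were -0.48 and 0.18. COL3A1 was 1.29 lower under COMBO than under PLX4720 alone (interval -2.90 to 0.32) and 6.24 higher than under bevacizumab alone (4.63 to 7.85, adjusted p = 0.00613), where it stood at 5.40, 5.82 and 5.27.

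**Figure D5:**
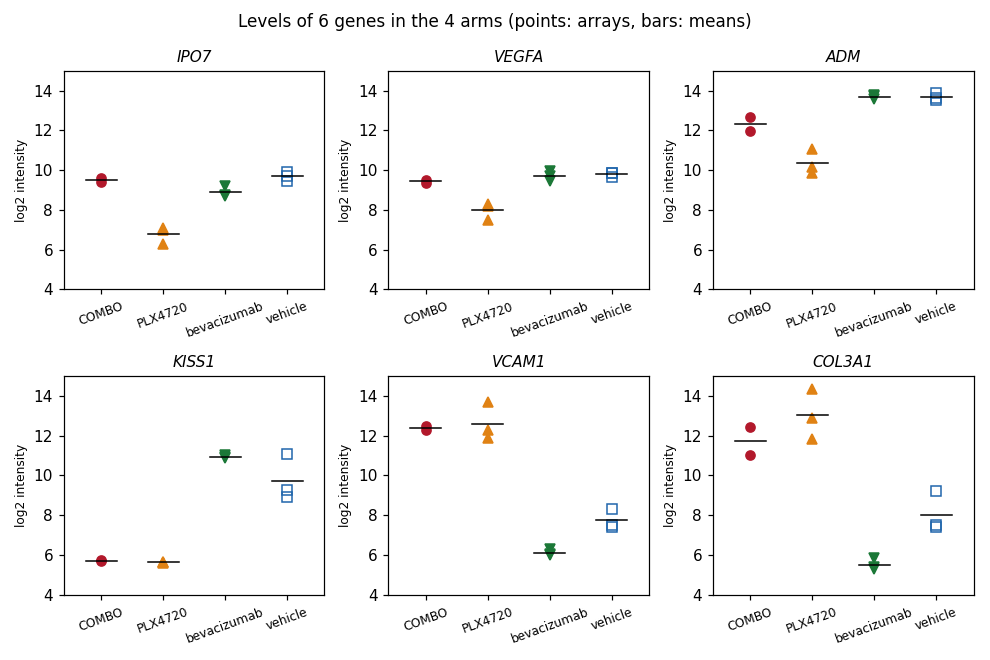
Normalised log2 intensity (y axis) of 6 genes in the arms COMBO, PLX4720, bevacizumab and vehicle (x axis); points are arrays and bars are arm means. IPO7, VEGFA and ADM are lower under PLX4720 alone than under COMBO, and for KISS1 and VCAM1 COMBO minus PLX4720 was 0.09 and -0.22.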

How the data were processed

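RNA of 11 xenografts was hybridised to Illumina HumanHT-12 v4 arrays, 1 array per tumour. The deposited intensity values were summarised per probe by the authors in GenomeStudio 2011.01, with a detection p-value per probe that the authors' software derived from negative control spots. A table normalised by cubic spline, also deposited, served as an alternative. Depth is not defined for arrays, and precision is limited by their number. Intensities were background-corrected (normexp from the detection p-values, offset 16), quantile-normalised and log2-transformed (limma 3.58.1, R 4.3.3). Probes detected (p below 0.05) on at least 1 array were kept, with the brightest probe on average standing for its gene, giving 14886 genes from 20638 probes. Of 47323 probes 30113 carried 1 gene symbol, 8 several and 17202 none. Probe coordinates are not given because no genome build is given in the sources used here.

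Limma was fitted to all 4 arms, COMBO, PLX4720, bevacizumab and vehicle, with Benjamini-Hochberg adjustment over all genes, and a gene was called at an adjusted p below 0.05. The code was tested on simulated data. Where every array of a group was below background, a lower bound of the fold was computed against the higher of the array's lowest detected signal and the probe's own value, and written as "at least". Levels of different probes are not compared. Tumours of a group are separate samples in the labels.

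Named genes were taken from the called genes without overlap, the 15 largest rises and all falls. From each list came called members or up to 2 members of smallest p. A fixed set of pathway genes was added, and the called genes between COMBO and each single drug (up to 5 in each direction). Not every gene under this rule is described. NAT16 and HES2, called lower under COMBO than under bevacizumab alone (-2.59 and -2.43), are not, nor are list members such as C1QA, AQP1, GADD45B and ACAT2. SLIT2, HELZ2 and other genes outside this rule were named after their values were seen. The comparison and the gene lists were chosen with earlier results of these data known. An item of the fixed set is not reported here. Promoters came from RefSeq (GRCh38.p14). Alternatives covered background, normalisation, filter, probe choice, model and left-out arrays.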

Additional observations from a re-analysis of the deposited data

Results flagged for a closer look

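IPO7 was marked because a test of the difference itself separated COMBO from PLX4720 alone. It was 2.70 log2 units higher under COMBO (adjusted p = 0.0279, limma), with the 2 COMBO arrays at 9.58 and 9.38 above the 3 PLX4720 arrays at 7.11, 6.97 and 6.27.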

How the results depend on the processing

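The 21 called genes kept their direction in all 24 alternatives, which their lack of overlap between the groups largely ensured. Of their 504 values 319 stayed past the threshold and 185 did not. Only SCRG1 passed in all 24. The number called between COMBO and vehicle was 9 with the authors' cubic spline table (9 of 9 higher, against 85.7% higher of the 21), 8 with no detection filter (75% higher), 172 with only the 5 arrays compared (66.3% higher), 65 with PLX4720 3 and bevacizumab 1 left out (75.4%) and 402 with array weights (63.4%). Genes at the limits of the study numbered 128 with no background correction, 116 with the spline table, 421 with only the arrays compared and 415 with array weights. Between COMBO and PLX4720 the count was 0 in the fit of only the arrays compared and 0 with array weights (limma, 419 and 1081 at an unadjusted p below 0.05), and 2 with PLX4720 3 and bevacizumab 1 left out. Between COMBO and bevacizumab it was 110, 862 and 92 in these 3 fits. Leaving out 1 array at a time gave 1 to 72 called genes and 135 to 295 at the limits of the study between COMBO and vehicle, 0 to 240 between COMBO and PLX4720 (240 without PLX4720 2) and 5 to 142 between COMBO and bevacizumab. Same-numbered COMBO and vehicle arrays gave correlations of -0.01 and -0.01 between their deviations from the arm means. The deviations of 2 COMBO arrays mirror each other, so these values cannot decide whether the numbers pair the samples. Across the arms the largest correlation was 0.63, between PLX4720 3 and bevacizumab 1, which carry different numbers. With the replicate block the counts were 7, 0 (881 at an unadjusted p below 0.05) and 25, against COMBO minus vehicle, PLX4720 and bevacizumab in that order, and all 7 were higher. The interferon median stayed between 1.12 and 1.80 and the hypoxia median between -0.85 and -0.65. The causes of these changes were not tested. With 2 COMBO arrays a single array carries much of each value, and probes near background give only bounds.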

Other observations

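Values of 4 genes of the U1 small nuclear RNA, a part of the spliceosome, were picked after they were seen, and none was called. The genes are near-identical copies, so their probes may read the same transcripts. RNVU1-18 stood at 10.25 and 9.79 under COMBO against 11.93, 12.15 and 11.69 under vehicle (-1.90 ± 0.46 SE), and RNU1-3, RNVU1-7 and RNU1-1 differed by -1.65, -1.56 and -1.39. COMBO minus PLX4720 was -1.94 for RNVU1-18 (adjusted p = 0.505, limma).

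Among genes on no list, 88 were higher and 58 lower at the limits of the study. HMOX1, the heme-degrading enzyme induced by oxidative stress, stood at 6.81 and 6.14 under COMBO against 8.53, 8.76 and 8.94 under vehicle (-2.26 ± 0.46). NOX4, an NADPH oxidase, stood at 7.23 and 7.55 against 8.97, 8.87 and 8.75 (-1.47 ± 0.25, adjusted p = 0.0557, limma), but a second, dim NOX4 probe differed by -0.22. APOE, the lipid carrier apolipoprotein E, stood at 13.12 and 13.97 against 12.16, 10.96 and 10.70 (2.27 ± 0.40), and IL18BP, which neutralises interleukin 18, at 9.56 and 8.93 against 7.42, 7.33 and 7.09 (1.97 ± 0.33). Other, dim IL18BP probes differed by -0.57 and -0.04. HMOX1, NOX4, APOE and IL18BP were picked after their values were seen and were not called.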
